A study of Mus musculus with 16 samples.

Results

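MHC class II molecules carry peptides from internalised proteins to the cell surface, where CD4+ T cells read them. The alpha and beta chains are assembled around the invariant chain in the endoplasmic reticulum, the invariant chain is degraded in endosomes, and the DM molecule then exchanges its last fragment for antigen peptide while the DO molecule restrains DM. Most of these genes are switched on together by the coactivator CIITA, and in the myeloid lineage they are best known as a mark of dendritic cells (DCs) and macrophages. Their mRNA was followed here in cultured DC progenitors that did or did not lack most functional Ikaros, a zinc finger protein encoded by Ikzf1.

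The genes were 9 symbols of this pathway, chosen by name: H2-Aa, H2-Ab1, H2-Eb1, Cd74, H2-DMa, H2-DMb2, H2-Oa, H2-Ob and Ciita. A gene was measured where a probe set (the group of array probes that reports a transcript) mapped to its symbol alone, and 8 of the 9 passed, out of 19938 genes that could be measured this way. H2-DMb2, the beta chain of DM, shared its probe set with its near-identical neighbour H2-DMb1 and was left out. Each of the 8 had 1 such probe set, and no filter on low values was applied.

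Monocyte-DC progenitors (MDPs) and the common DC progenitors (CDPs) that arise from them were purified from the bone marrow of WT mice or of mice homozygous for the hypomorphic Ikaros allele (IkL/L). The CD45.2+ progenitors were cultured for 24 h with Flt3L and unfractionated CD45.1+ WT bone marrow, with the γ-secretase inhibitor (GSI) Compound E at 5 uM, which blocks Notch cleavage, or with its solvent DMSO (vehicle). CD45.2+ cells were then sorted again and their RNA was amplified and hybridised to Affymetrix Mouse Gene ST 1.0 arrays. The 8 groups of 2 arrays were thus WT MDP, WT CDP, IkL/L MDP and IkL/L CDP, each with vehicle and with GSI, 16 arrays in all and 2 mice per condition per the study's legend. The mice were young adults, younger than the age at which IkL/L animals develop T cell leukemia. All groups shared the Flt3L, the 24 h of culture and the WT feeder cells, and the second sort used CD45.2 and no differentiation marker, so MDP and CDP name the cell that was put into culture. In such bulk RNA, more cells that express a gene and more RNA per cell cannot be told apart.

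All values below are log2 signals after RMA, the background correction, normalisation and summary that the authors applied, so a difference of 1 is a 2-fold change. Arrays of the same group correlated at r = 0.983 to 0.996 over all probe sets, and array medians lay between 4.52 and 4.65. Ikzf1 itself read 8.90 to 9.20 on the WT arrays and 8.36 to 8.94 on the IkL/L arrays, which overlapped, with a mean difference of -0.40 (limma, adjusted p = 0.00666). Where its probes lie relative to the altered part of the locus was not examined, so this is no check of the labels.

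The promoters of class II genes share a short module in which an X box, bound by RFX and CREB, is followed by a Y box, bound by NF-Y, and CIITA docks on these factors without touching DNA. Promoter entries of RefSeq (GRCm38.p6, 250 bases before to 50 after each start site) were used for 5 of the 8 measured genes: H2-Aa, H2-Eb1, H2-DMa, H2-Oa and H2-Ob. H2-Ab1 and Ciita had no entry, and Cd74 was left out of the search, so its promoter was not examined. The entries used were searched on both strands for GCAAC, the core of many X boxes, and TGATTGG, a Y box that holds the reverse of CCAAT. The stretches below are shown because genes that behaved very differently on the arrays, the chain genes H2-Aa and H2-Eb1 and the DO genes H2-Oa and H2-Ob, carried both, in the same order. Each is read 5′ to 3′ along the gene and lies before its start site, with the matches in capitals.
H2-Aa (chr17:34287855-34287918, minus strand): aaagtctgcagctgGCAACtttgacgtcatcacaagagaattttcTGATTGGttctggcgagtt
H2-Eb1 (chr17:34305762-34305824, plus strand): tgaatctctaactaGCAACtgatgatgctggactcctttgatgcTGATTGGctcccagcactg
H2-Oa (chr17:34092289-34092352, plus strand): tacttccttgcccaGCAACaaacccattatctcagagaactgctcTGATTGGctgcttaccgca
H2-Ob (chr17:34238804-34238864, plus strand): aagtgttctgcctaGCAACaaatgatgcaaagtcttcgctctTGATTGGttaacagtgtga

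The matches were 23 to 26 bases apart in these 4 genes, 26 in H2-Aa, 25 in H2-Eb1, 26 in H2-Oa and 23 in H2-Ob. The first base of GCAAC stood 81 bases before the start site in H2-Aa, 91 in H2-Eb1, 76 in H2-Oa and 87 in H2-Ob. Over all 32851 promoter entries, 35.2% held GCAAC, 7.82% held TGATTGG, and 0.353% held GCAAC followed by TGATTGG on the same strand within 40 bases. Neither start site listed for H2-DMa had TGATTGG in its window. These are matches of letters and say nothing of binding in the cultured cells.

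H2-Aa (probe set 10450154) and H2-Ab1 (10444291) encode the alpha and beta chains of I-A, H2-Eb1 (10444298) encodes the beta chain of I-E, and Cd74 (10456005) encodes the invariant chain. These 4 genes were low in WT MDPs, high in WT CDPs, and high in IkL/L cells at both stages. In IkL/L MDPs given vehicle they stood at 11.9 to 14.8 times their WT MDP level, and IkL/L MDPs came close to WT CDPs without reaching them.

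With vehicle, H2-Aa read 6.83 and 6.99 in WT MDPs and 10.45 and 11.14 in IkL/L MDPs, then 11.54 and 11.63 in WT CDPs and 12.43 and 12.54 in IkL/L CDPs. The 4 groups did not overlap and stood in that order. H2-Ab1 read 6.75 and 6.79, 10.17 and 10.91, 11.29 and 11.33, and 12.09 and 12.25 in the same groups. Its I-A partner chain thus kept the same order with no overlap. H2-Eb1 read 5.51 and 5.53 in WT MDPs, 8.50 and 9.67 in IkL/L MDPs, 10.17 and 10.32 in WT CDPs, and 11.53 and 11.98 in IkL/L CDPs. Cd74 read 6.70 and 6.95, 9.93 and 10.95, 10.98 and 11.11, and 12.15 and 12.32. The highest Cd74 array of IkL/L MDPs came just under the lower WT CDP array, and the groups still did not overlap.

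**Figure D1:**
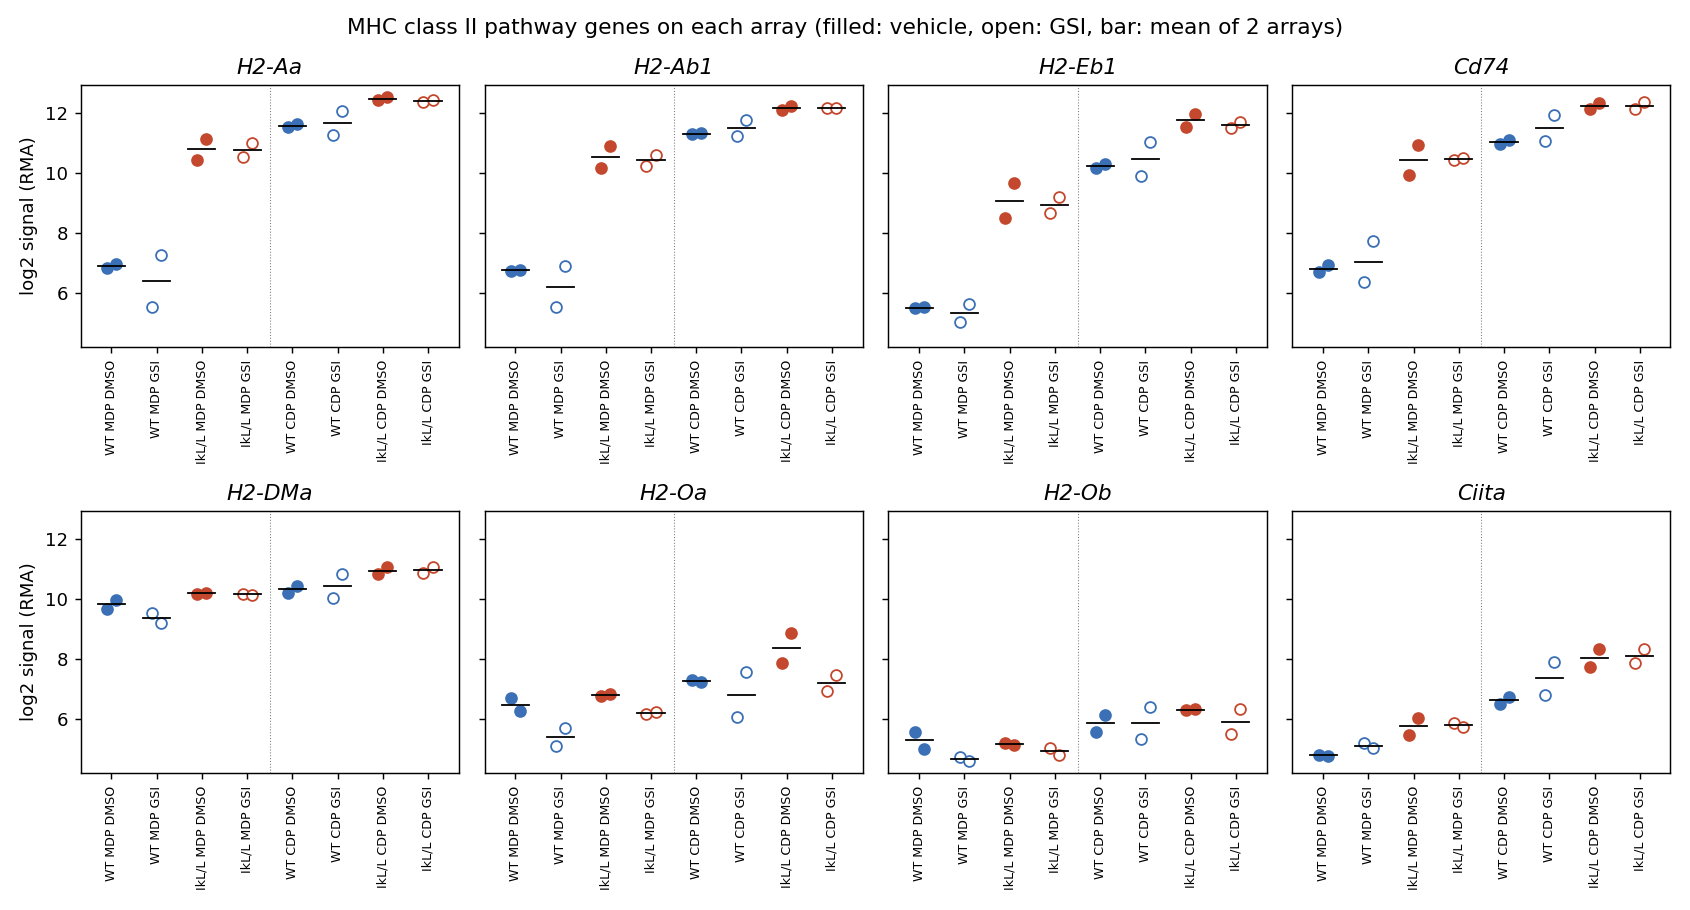
Log2 RMA signal (y axis) of the 8 measured class II pathway genes on each of the 16 arrays, by group (x axis), blue for WT and red for IkL/L, filled for vehicle and open for GSI, with a bar at the mean of 2 arrays. In the upper row WT MDPs lie far below every other group (H2-Aa 5.53 to 7.26 against 10.45 and above), while the lower row spans a narrower range, least for H2-Ob (4.60 to 6.41).

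Between vehicle-treated MDPs, the IkL/L minus WT difference was 3.89 (SE 0.46, 14.8-fold) for H2-Aa, 3.77 (SE 0.37, 13.6-fold) for H2-Ab1, 3.57 (SE 0.42, 11.9-fold) for H2-Eb1 and 3.61 (SE 0.43, 12.2-fold) for Cd74. All 4 passed the threshold of limma's test (adjusted p of 0.0138, 0.0102, 0.0138 and 0.0138). They were 4 of the 8 measured genes, where 0.105% of all genes were called, all of them higher. H2-Aa and H2-Ab1 had the largest increases of all 19938 genes tested, and Cd74 and H2-Eb1 ranked 4 and 5. The other 4 genes were not called. The median difference over the 8 was 2.27, against -0.00051 over all genes.

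The direction and size of these 4 differences held without each array in turn (H2-Aa 3.54 to 4.23, H2-Ab1 3.40 to 4.14, H2-Eb1 2.99 to 4.16, Cd74 3.10 to 4.12), but no gene of the 8 stayed called without replicate 1 or 2 of WT MDPs or replicate 2 of IkL/L MDPs, with adjusted p of up to 0.181. H2-Aa also lost its call without replicate 1 of IkL/L MDPs (adjusted p = 0.0764), and none was called when the fit held the 4 compared arrays alone (adjusted p of 0.0536 to 0.170).

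The GSI-treated MDPs, which share no array with the vehicle-treated ones, gave the same order. The labels do not say whether they share mice with them, so an independent repeat is not shown. H2-Aa read 5.53 and 7.26 in WT and 10.54 and 10.99 in IkL/L MDPs, and H2-Eb1 read 5.04 and 5.65 against 8.67 and 9.20. H2-Ab1 read 5.55 and 6.90 against 10.24 and 10.61, and Cd74 read 6.37 and 7.73 against 10.45 and 10.51. The genotypes did not overlap, and WT replicate 1 was the lower WT array for each of the 4 genes. The differences were 4.37 (20.7-fold), 4.20 (18.4-fold), 3.59 (12.0-fold) and 3.43 (10.8-fold) for H2-Aa, H2-Ab1, H2-Eb1 and Cd74, with adjusted p of 0.00651, 0.00379, 0.0102 and 0.0165. Again 4 of 8 were called higher, beside 0.11% of all genes. Without WT replicate 1 the count was 2, without either IkL/L MDP GSI array it was 1, and in the 4 compared arrays alone it was 0.

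In CDPs the same genes were higher in IkL/L cells by less. With vehicle the differences were 0.90 (95% interval -0.13 to 1.93) for H2-Aa, 0.86 (0.04 to 1.68) for H2-Ab1, 1.51 (0.58 to 2.43) for H2-Eb1 and 1.19 (0.24 to 2.15) for Cd74. The arrays of the 2 genotypes did not overlap for any of them, and none passed after adjustment (limma, adjusted p of 0.164 to 0.624). The share of all genes without overlap was not counted, here or for other groups. By permutation, 2 against 2 arrays cannot go below p = 0.333, so a lack of overlap alone is weak evidence. In all, 0 of the 8 genes were called, where 1.18% of all genes were. Before adjustment 6 of the 8 had p under 0.05, beside 9.38% of all genes. With GSI the differences were 0.72, 0.67, 1.14 and 0.76, and again 0 of 8 were called beside 2.15% of all genes, or 1 (H2-DMa, adjusted p = 0.0471) without WT CDP GSI replicate 2.

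**Figure D2:**
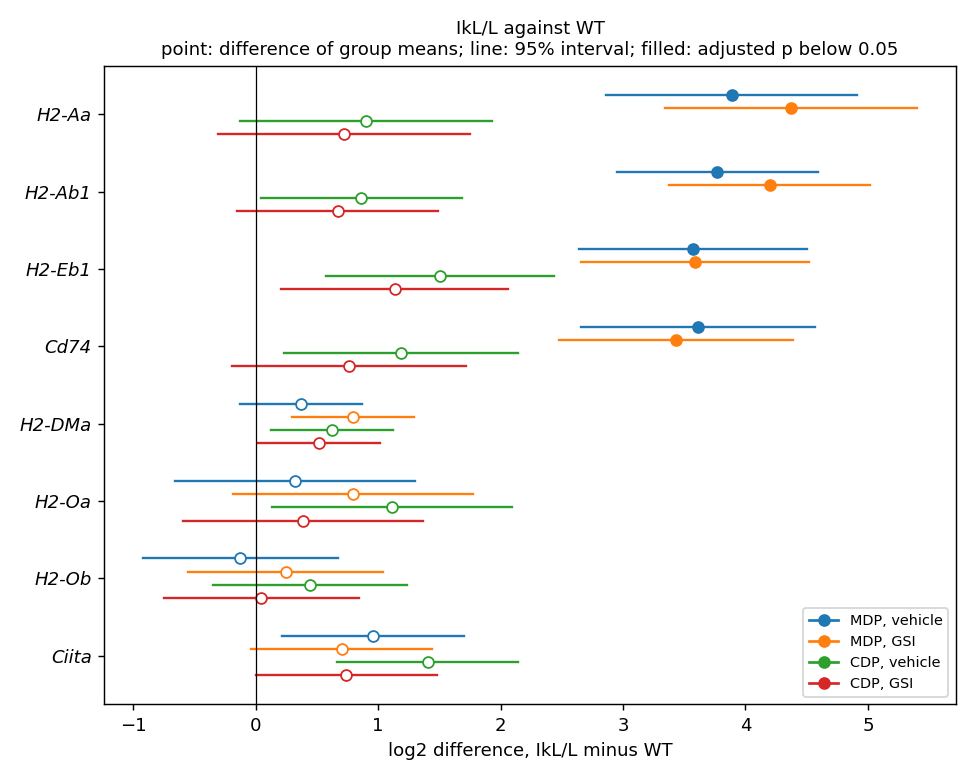
IkL/L minus WT difference in log2 signal (x axis) of each gene (y axis) in vehicle- or GSI-treated MDPs and CDPs, with 95% intervals from the fit over all 16 arrays and filled points where the adjusted p is below 0.05. H2-Aa, H2-Ab1, H2-Eb1 and Cd74 differ by 3.43 to 4.37 in MDPs and by 0.67 to 1.51 in CDPs, while H2-DMa, H2-Oa, H2-Ob and Ciita differ by -0.12 to 1.40 over both stages.

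The smaller genotype difference in CDPs was itself tested. Averaged over treatment, the difference in CDPs minus that in MDPs was -3.32 (SE 0.46) for H2-Aa, -3.22 (SE 0.37) for H2-Ab1, -2.55 (SE 0.43) for Cd74 and -2.26 (SE 0.42) for H2-Eb1, with adjusted p of 0.00972, 0.00323, 0.0289 and 0.0484. These 4 of 8 were called lower, where 0.16% of all genes were called lower, and they were the 4 most negative of all genes tested. H2-Aa and H2-Ab1 stayed called without each array in turn, while Cd74 stayed called in 4 and H2-Eb1 in 3 of those 16 fits (adjusted p of up to 0.0970 and 0.152). The count was 2 without any of the arrays other than WT MDP GSI replicates 1 and 2, WT CDP GSI replicate 1 and IkL/L MDP DMSO replicate 1. With vehicle alone, on 8 arrays, the same 4 values were -2.99, -2.91, -2.42 and -2.07 and 0 of 8 were called (adjusted p of 0.138 to 0.788), beside 0.105% of all genes, or 2 without either WT MDP GSI array. The highest value of any probe set on any array was 13.46, so the CDP readings of 12 and above lay near the top of the scale on which these differences are taken; its part in the result was not tested.

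Over all 4 pairs of groups the mean IkL/L minus WT difference was 2.47 for H2-Aa, 2.38 for H2-Ab1, 2.45 for H2-Eb1 and 2.25 for Cd74. An exact two-sided permutation test that exchanged arrays between genotypes only within a stage and treatment gave p = 0.00154 for each, the smallest that its 1296 arrangements allow (0.00285 after Benjamini-Hochberg adjustment over 24 such tests). The test, like limma's fit, takes arrays of different stages and treatments as independent. The labels do not say whether such arrays share mice, and this limit holds for each later use of the test. In limma's fit the same 4 differences had adjusted p of 0.000187, 5.74e-05, 0.000102 and 0.000211, and these limma calls held without each array in turn.

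Stage was the other axis. In vehicle-treated WT cells the CDP minus MDP difference was 4.67 (SE 0.46, 25.5-fold) for H2-Aa, 4.54 (SE 0.37, 23.3-fold) for H2-Ab1, 4.73 (SE 0.42, 26.5-fold) for H2-Eb1 and 4.21 (SE 0.43, 18.5-fold) for Cd74, with adjusted p of 0.00622, 0.00341, 0.00378 and 0.00622. These were the 4 called of the 8, where 0.0953% of all genes were called, and H2-Eb1 had the largest increase of all genes. Without WT MDP DMSO replicate 1 or 2 the count fell to 0 (adjusted p of 0.0756 to 0.0883) and without WT CDP DMSO replicate 1 to 2, while the values moved only between 4.09 and 4.80. With GSI the WT stage differences were 5.28, 5.28, 5.12 and 4.44, all called, although the fit of those 4 arrays alone called none.

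In IkL/L cells the stage difference was smaller. With vehicle it was 2.66 (SE 0.42, 6.33-fold, adjusted p = 0.0104) for H2-Eb1, 1.69 for H2-Aa, 1.63 for H2-Ab1 and 1.79 for Cd74, and of these only H2-Eb1 passed in this fit (the others had adjusted p of 0.126, 0.0607 and 0.0775). Together with Ciita, below, 2 of 8 were called, where 1.28% of all genes were called higher. With GSI the called genes were H2-Ab1 (1.75, adjusted p = 0.0377), H2-Eb1 (2.67, adjusted p = 0.00821) and Ciita, 3 of 8 beside 1.65% of all genes called higher. The vehicle count was 0 without IkL/L MDP DMSO replicate 1 or IkL/L CDP DMSO replicate 2, and 4 or 5 without 1 of the WT GSI arrays. The GSI count was 0 without IkL/L MDP GSI replicate 1 or IkL/L CDP GSI replicate 2, 1 without IkL/L MDP GSI replicate 2, and 5 without either WT MDP GSI array.

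**Figure D3:**
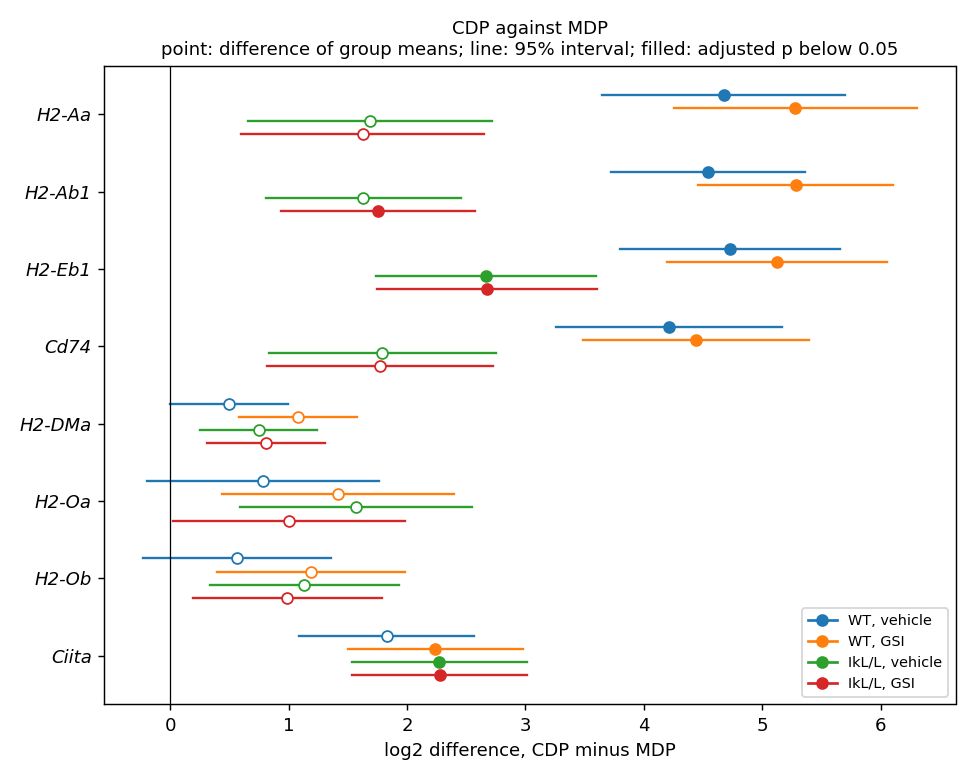
CDP minus MDP difference in log2 signal (x axis) of each gene (y axis) for WT and IkL/L cells with vehicle or GSI, with 95% intervals from the fit over all 16 arrays and filled points where the adjusted p is below 0.05. For H2-Aa, H2-Ab1, H2-Eb1 and Cd74 the WT differences are 4.21 to 5.28 and the IkL/L differences 1.63 to 2.67, and all 8 genes have a positive difference in each comparison.

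Set side by side without a test, vehicle-treated WT CDPs were above IkL/L MDPs by 0.79 for H2-Aa, 0.77 for H2-Ab1, 1.16 for H2-Eb1 and 0.60 for Cd74. The arrays of these 2 groups did not overlap, with vehicle or with GSI. In the order of the 8 group means, WT MDPs came lowest, then IkL/L MDPs, WT CDPs and IkL/L CDPs for each of the 4 genes. Within each of these pairs of vehicle and GSI groups the arrays overlapped, with the exception of H2-Aa in IkL/L CDPs (12.43 and 12.54 with vehicle, 12.36 and 12.42 with GSI).

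H2-DMa (probe set 10444229) encodes the alpha chain of DM, which loads peptide. With vehicle it read 9.67 and 9.97 in WT MDPs, 10.17 and 10.21 in IkL/L MDPs, 10.19 and 10.44 in WT CDPs, and 10.83 and 11.05 in IkL/L CDPs. WT MDPs were lowest and IkL/L CDPs highest with no overlap, and the groups between them overlapped. Its genotype difference was 0.37 (95% interval -0.12 to 0.87) in vehicle-treated MDPs and 0.62 (0.12 to 1.12) in CDPs, neither called.

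Averaged over the 4 pairs of groups, H2-DMa rose in IkL/L cells by 0.58 (SE 0.11, 1.49-fold, adjusted p = 0.0132). Its genotype difference was about the same at both stages (CDP minus MDP -0.01, 95% interval -0.51 to 0.48). The alpha chain of DM was therefore among the 6 of 8 genes called higher on the average genotype contrast, where 3.85% of all genes were called higher. The other 5 were H2-Aa, H2-Ab1, H2-Eb1, Cd74 and Ciita.

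H2-Oa (probe set 10444223) and H2-Ob (10444284) encode the chains of DO, which inhibits DM. With vehicle, H2-Oa read 6.27 and 6.69 in WT MDPs, 6.78 and 6.82 in IkL/L MDPs, 7.22 and 7.30 in WT CDPs, and 7.88 and 8.86 in IkL/L CDPs. It followed the order of the chain genes over a narrower range. H2-Ob read 5.02 and 5.56, 5.14 and 5.20, 5.57 and 6.15, and 6.29 and 6.32, so its WT and IkL/L MDPs overlapped. The genotype difference of H2-Oa was 0.33 in MDPs and 1.11 (95% interval 0.13 to 2.09) in CDPs, and that of H2-Ob was -0.12 and 0.44, none called. Averaged over the 4 pairs of groups, H2-Oa differed by 0.66 (SE 0.22, adjusted p = 0.132, and p = 0.0185 in the exact stratified permutation test) and H2-Ob by 0.15 (SE 0.18, adjusted p = 0.728). Without WT CDP GSI replicate 2, H2-Oa was 0.84 and called (adjusted p = 0.0168), which made 7 genes.

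By stage, CDPs were above MDPs for all 3 genes in both genotypes, by 0.50 to 1.57 with vehicle. None was called in limma's single contrasts. Averaged over genotype and treatment the difference was 0.78 for H2-DMa, 1.19 for H2-Oa and 0.97 for H2-Ob, each with p = 0.00154 in the exact stratified permutation test, again the smallest it allows.

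Ciita (probe set 10433507, on chromosome 16) encodes the coactivator of the other genes. With vehicle it read 4.78 and 4.81 in WT MDPs, 5.46 and 6.05 in IkL/L MDPs, 6.51 and 6.74 in WT CDPs, and 7.73 and 8.32 in IkL/L CDPs. These 4 groups stood in the order of the chain genes and did not overlap. The IkL/L minus WT difference was 0.96 (SE 0.33, 1.94-fold) in MDPs and 1.40 (SE 0.33, 2.65-fold) in CDPs, and neither passed in this fit (adjusted p = 0.911 and 0.0889). In CDPs it did pass with an intensity trend (0.0480), without dim genes (0.0494) and without either WT CDP GSI array (0.0239).

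Averaged over the 4 pairs of groups, Ciita rose in IkL/L cells by 0.95 (SE 0.17, 1.93-fold, adjusted p = 0.00777). The exact stratified permutation test gave p = 0.00309. By stage, Ciita was 3.55-fold higher in WT CDPs than in WT MDPs with vehicle (adjusted p = 0.127) and rose 4.84-fold in IkL/L cells (adjusted p = 0.00748), 4.73-fold in GSI-treated WT cells (adjusted p = 0.0339) and 4.84-fold in GSI-treated IkL/L cells (adjusted p = 0.00577). With Ciita, 5 of 8 genes were called in GSI-treated WT cells, where 0.166% of all genes were called higher. That Ciita call was lost without each of 9 arrays in turn, among them WT CDP GSI replicate 2 (adjusted p = 0.154) and WT MDP GSI replicate 1 (0.230).

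The genotype difference of Ciita did not shrink with stage as that of the chain genes did. It was higher in CDPs than in MDPs by 0.24 (95% interval -0.50 to 0.98). The interval for H2-Aa was -4.35 to -2.29 and that for H2-Ab1 was -4.04 to -2.40. Between WT and IkL/L MDPs, a Ciita difference of 0.96 stood beside chain gene differences of 3.57 to 3.89, and between WT and IkL/L CDPs a Ciita difference of 1.40 stood beside 0.86 to 1.51. In vehicle-treated WT MDPs Ciita read 4.78 and 4.81, close to the array medians of 4.52 to 4.65. A value so near the floor can make a difference look smaller, and its part in the MDP difference of Ciita was not tested.

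**Figure D4:**
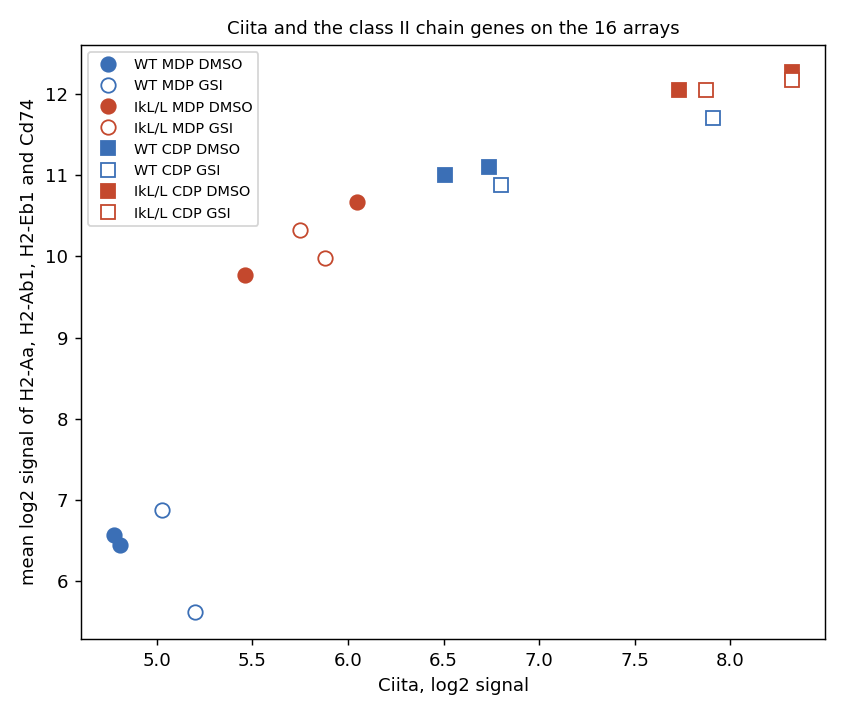
Log2 signal of Ciita (x axis) against the mean log2 signal of H2-Aa, H2-Ab1, H2-Eb1 and Cd74 (y axis) on the 16 arrays, circles for MDPs and squares for CDPs, blue for WT and red for IkL/L, filled for vehicle and open for GSI. The chain gene mean goes from 5.62 to 6.89 in WT MDPs to 9.77 to 10.67 in IkL/L MDPs while Ciita stays at or below 6.05, and from there to the CDPs Ciita reaches 8.32 and the mean 12.27.

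Over the 16 arrays the correlation of each gene with the mean of H2-Aa, H2-Ab1, H2-Eb1 and Cd74 was 0.883 for Ciita, 0.878 for H2-DMa, 0.741 for H2-Oa and 0.685 for H2-Ob. The arrays fall into groups, so these values mostly restate the group order. After the group means were removed, arrays of a group still moved together for the I-A chains (r = 0.986 for H2-Aa and H2-Ab1) and for H2-Aa and Cd74 (0.948), less so for H2-Aa and Ciita (0.346), and H2-Aa and H2-DMa had r = 0.105. These are descriptions over pairs of arrays that share sort, amplification and hybridisation.

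Of the factors that bind the X and Y boxes, all 7 listed (Rfx5, Rfxap, Rfxank, Nfya, Nfyb, Nfyc and Creb1) were measured. By limma's adjusted p, 0 were called in the genotype contrasts with vehicle or on the average genotype contrast. Before adjustment 0 in MDPs, 2 in CDPs and 2 on average had p under 0.05, beside 879, 1871 and 3613 of all 19938 genes. Of 8 measured factors that act on Ciita promoters, 0 were called between WT and IkL/L MDPs with vehicle, where the largest differences were 1.37 for Irf4 and 0.50 for Irf1. Irf1, an interferon-induced activator of Ciita, rose in IkL/L CDPs by 0.95 (adjusted p = 0.0130) and on average by 0.81 (adjusted p = 0.000167), and was the 1 factor of the 8 called there.

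No measured gene of the pathway was called for GSI in any of the 4 kinds of cell, nor on average, where 0, 0.01, 0, 0.00502 and 0.306% of all genes were called. Before adjustment, limma gave p under 0.05 for 1 of 8 genes in WT MDPs (6.77% of all genes), 0 in WT CDPs (4.1%), 0 in IkL/L MDPs (2.62%) and 1 in IkL/L CDPs (3.5%), in both cases H2-Oa. The mean GSI minus vehicle difference was -0.14 (95% interval -0.65 to 0.38) for H2-Aa, -0.11 (-0.53 to 0.30) for H2-Ab1, -0.06 (-0.53 to 0.40) for H2-Eb1 and 0.18 (-0.29 to 0.66) for Cd74. Within single kinds of cell the intervals were wider, the lowest bound of these 4 genes being -1.54 (H2-Aa in WT MDPs) and the highest 1.41 (Cd74 in WT CDPs), so a GSI difference as large as the genotype differences seen in CDPs was not excluded at this number of arrays. The genotype difference with GSI minus that with vehicle was -0.46 to 0.16 over the 8 genes, with 0 called, as for all genes (0% called).

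H2-Oa, the alpha chain of the DM inhibitor, stood apart. It read 6.27 and 6.69 with vehicle and 5.11 and 5.69 with GSI in WT MDPs, and 6.78 and 6.82 against 6.17 and 6.22 in IkL/L MDPs. In IkL/L CDPs it read 7.88 and 8.86 against 6.95 and 7.46, and in WT CDPs 7.22 and 7.30 against 6.06 and 7.56. GSI arrays were the lower ones without overlap in 3 of the 4 kinds of cell, and in WT CDPs replicate 2 with GSI was the highest array. How many of all genes were as free of overlap was not counted.

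The mean GSI minus vehicle difference of H2-Oa was -0.83 (SE 0.22), which did not pass over all genes (limma, adjusted p = 0.172). The exact stratified permutation test gave p = 0.00463 (0.00741 adjusted over the 24 such tests). Those 24 include the genotype and stage tests, most of them at the smallest p, which makes the adjustment mild for the GSI tests. Without WT CDP GSI replicate 2 the difference was -1.01 and passed (adjusted p = 0.0470). H2-Ob, the partner chain of H2-Oa, differed by -0.31 (95% interval -0.71 to 0.09). Ciita differed by 0.29 (-0.08 to 0.66), most in WT CDPs, where it read 6.51 and 6.74 with vehicle and 6.80 and 7.91 with GSI.

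**Figure D5:**
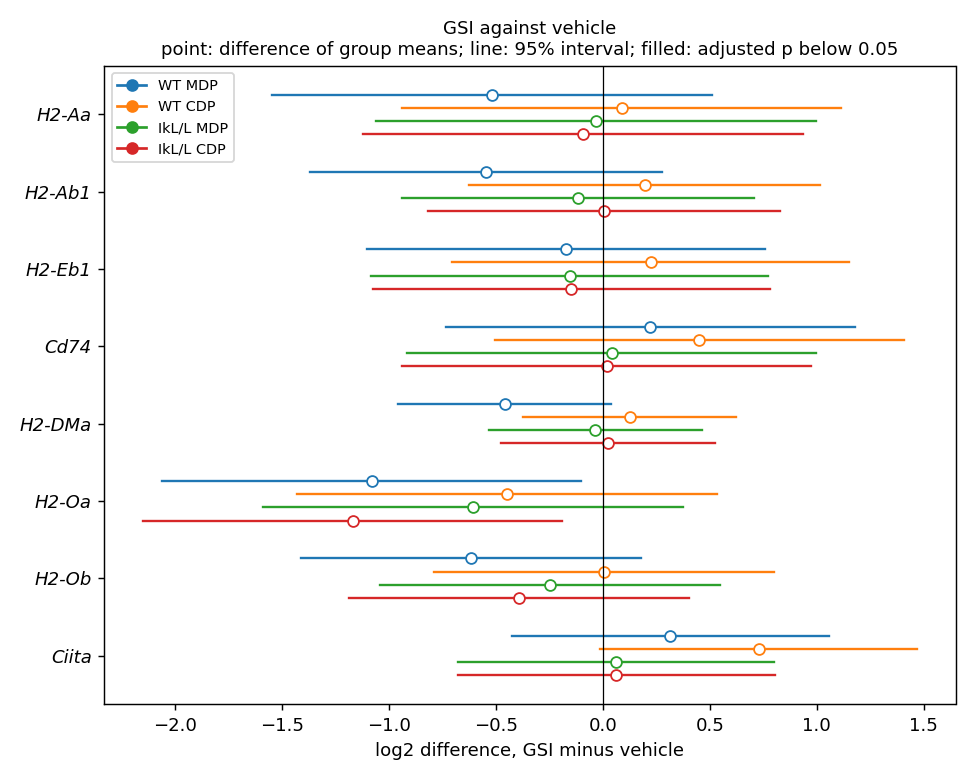
GSI minus vehicle difference in log2 signal (x axis) of each gene (y axis) in WT and IkL/L MDPs and CDPs, with 95% intervals from the fit over all 16 arrays; open points mark an adjusted p of 0.05 or more. All points are open; H2-Oa lies below 0 in each kind of cell (-1.08, -0.45, -0.61 and -1.17).

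On chromosome 17 the genes with large differences were neighbours, while Cd74, which differed by 3.61 in vehicle-treated MDPs, lies on chromosome 18. In the RefSeq order of the region H2-Ab1, H2-Aa and H2-Eb1 stand side by side, between H2-Ob and H2-Eb2. In vehicle-treated MDPs their genotype differences of 3.77, 3.89 and 3.57 stood beside -0.12 for H2-Ob and 0.0016 for H2-Eb2, a further beta chain gene. H2-Eb2 had means of 3.74 in these WT MDPs and 3.75 in the IkL/L MDPs. Both lay below the lowest array median of 4.52, so its small difference is one between values near the floor. Of 9 measured genes in or next to the region that are not class II genes, among them the peptide transporters Tap1 and Tap2 and the proteasome subunits Psmb8 and Psmb9, 0 were called, with differences of -0.20 to 0.13. Of these 9, 2 had a mean over all arrays below the lowest array median. H2-Eb2 was called higher in IkL/L CDPs (1.55, adjusted p = 0.0386), where H2-Eb1 had 1.51. H2-Ea, the gene of the I-E alpha chain, had group means of 3.87 to 4.10, below the lowest array median of 4.52. The H2-Eb1 values are therefore no measure of the whole I-E molecule.

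Among 10 measured genes of antigen processing and class II turnover, 0 were called between WT and IkL/L MDPs or CDPs with vehicle. Before adjustment 0 and 2 of the 10 had p under 0.05 by limma, beside 879 and 1871 of all 19938 genes. Cathepsin S (Ctss), which removes the invariant chain, was called on the average genotype contrast (0.45, adjusted p = 0.0355). Legumain (Lgmn), an endosomal protease, rose from MDPs to CDPs in vehicle-treated IkL/L cells by 2.22 (limma, adjusted p = 0.0339). It also rose in vehicle-treated WT cells, from a mean of 5.91 to 7.71, without being called. Of 9 class I presentation genes, 0 were called in either vehicle contrast between genotypes and 1, H2-M3, on average (0.44, adjusted p = 0.00940), with a median over the 9 of 0.15.

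The genes outside the list whose signal followed the mean of H2-Aa, H2-Ab1, H2-Eb1 and Cd74 most closely over the 16 arrays were Cd209a (r = 0.949), Kmo (0.949), Klrd1 (0.947), Fmnl2 (0.946), Slamf7 (0.943), Plbd1 (0.942), Cd300a (0.933), Rnd3 (0.932), Anpep (0.932) and Ckb (0.932). Cd209a, a C-type lectin of DCs, went from 4.54 on its lowest array to 10.80 on its highest. None of the 10 was called between WT and IkL/L MDPs with vehicle, where Cd209a differed by 2.28 (adjusted p = 0.0866) and Klrd1 by 2.72 (adjusted p = 0.310).

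Class II is also made by B cells, mature DCs and macrophages, so lists of their markers were read on the same arrays. Of 11 measured B cell markers, 7 had a mean below the lowest array median, and their summed signal lay between 8.31 and 9.09 (log2) over all 16 arrays, with 8.63 to 8.68 in WT MDPs given vehicle and 8.63 to 8.76 in the matching IkL/L MDPs. The signals of IkL/L MDPs thus lay within the range of the WT arrays, and 0 of 11 markers were called there. In IkL/L CDPs 1 of the 11 was called higher, Fcer2a (CD23), by 1.54 with vehicle (adjusted p = 0.000933) and 0.97 with GSI (adjusted p = 0.0105). Fcer2a read 5.01 and 5.63 in vehicle-treated IkL/L CDPs, above its 3.77 and 3.78 in WT CDPs, and its part in the class II values of CDPs was not tested. Of the defining markers, Ms4a1 (CD20) read 3.31 to 3.71 over the 16 arrays, Pax5 3.88 to 4.23 and Cd79a 3.65 to 4.62, whereas Cd79b read 6.43 to 8.06 and Vpreb1 5.14 to 6.59, above the array medians. These last 5 were named after their values were seen. Of 8 T and NK cell markers, all 8 had a mean below the lowest array median.

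Among 11 mature DC markers 1 was called higher in vehicle-treated IkL/L MDPs (Ccl22, 2.02) and 8 in IkL/L CDPs, led by Fscn1 (4.27), Ccr7 (4.16), Ccl22 (3.73) and Traf1 (2.64). Of all 19938 genes, 21 and 186 were called higher in these 2 contrasts. Their summed signal was 8.34 to 8.48 in WT MDPs, 8.81 to 9.18 in IkL/L MDPs, 9.17 to 9.71 in WT CDPs and 11.92 to 12.49 in IkL/L CDPs. Mature DC markers thus differed between genotypes mainly in CDPs, while the class II chain genes differed more in MDPs. Averaged over treatment, the genotype difference was larger in CDPs than in MDPs for 7 of the 11 markers (limma, adjusted p below the threshold). Of all 19938 genes, 80 were called in this direction. The part of the mature DC markers in the result was not tested.

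Of 9 monocyte and macrophage markers, 1 was called in vehicle-treated IkL/L MDPs, Mrc1 (the mannose receptor, 3.38, adjusted p = 0.0125), which was also called in CDPs (2.64). Of 10 neutrophil markers 2 were called in IkL/L MDPs (Ltf 3.69 and Camp 3.49) and 5 in IkL/L CDPs, beside 21 and 186 of all 19938 genes called higher. The summed signal of the neutrophil markers was 13.50 to 13.60 in WT MDPs and 14.71 to 14.73 in IkL/L MDPs. Of 10 conventional DC markers and 7 markers of plasmacytoid DCs, 0 were called in either vehicle contrast between genotypes. On the average genotype contrast, in which 6 of the 8 class II genes were called, 2 of the 10 conventional DC markers were called higher, Cd209a (1.67, adjusted p = 0.000770) and Itgax (CD11c, 0.86, adjusted p = 0.0456), and 0 of the 7 plasmacytoid DC markers. More were called higher there among the mature DC markers (10 of 11) and the neutrophil markers (9 of 10). The counts were 2 of 9 for monocyte and macrophage and 1 of 11 for B cell markers, beside 3.85% of all genes. The summed signal of the conventional DC markers was 10.62 to 10.69 in WT MDPs and 10.84 to 11.18 in IkL/L MDPs, and 11.40 to 11.59 and 11.84 to 12.24 in the CDPs, all with vehicle. The part of the DC, granulocyte and macrophage markers in the class II difference was not tested.

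From WT MDPs to WT CDPs with vehicle, 1 of 10 conventional DC markers (Cd209a, 3.46) was called higher, beside 0.0953% of all genes. So were 1 of 7 plasmacytoid DC markers (Siglech, 2.10) and 1 of 11 mature DC markers (Ccl22, 2.13). Called or not, the mean was higher in WT CDPs for 8 of 10, 7 of 7 and 11 of 11 of these markers. Of all 19938 genes, 9883 had a higher mean there. No marker of the 7 measured for the MDP and CDP stages themselves was called in this contrast or between genotypes.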

How the data were processed

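Per the labels, the authors amplified RNA of re-sorted CD45.2+ cells, hybridised it to Mouse Gene ST 1.0 arrays and computed the deposited log2 values with RMA in Affymetrix Expression Console 1.4.1; the genome build was not given in the sources used here. Of 28188 probe sets, 21789 have 1 symbol, 1621 several and 4778 none in the platform annotation. Where a symbol had several probe sets of its own, the brightest on average stood for it (19938 genes). Groups came from the labels. limma 3.58.1 (R 4.3.3) fitted 8 group means to all 16 arrays (8 residual and 2.35 prior degrees of freedom), with Benjamini-Hochberg adjustment over all genes and a threshold of 0.05, and was tested on simulated data. The number of arrays limits the precision: 2 against 2 cannot go below p = 0.333 by permutation. Exact permutation tests within strata were added after the data were seen. Alternatives were an intensity trend, a filter on dim genes, 2 further normalisations, the compared arrays alone, the mean of probe sets, a replicate block and each array left out. The genes and lists were chosen with earlier results of these data known; all 9 genes are named, and from other lists up to 4 called genes in a comparison, or 2 where none was called; further names are marked in the text.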

Additional observations from a re-analysis of the deposited data

Results flagged for a closer look

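The genotype difference (IkL/L minus WT) differed between CDPs and MDPs for 4 of the 8 genes, by the interaction term of limma's fit averaged over treatment: -3.32 for H2-Aa, -3.22 for H2-Ab1, -2.26 for H2-Eb1 and -2.55 for Cd74.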

How the results depend on the processing

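With 2 arrays per group, counts of called genes moved more than the differences behind them. Over the fits without 1 array each, the count of called genes was 0 to 4 (4 in the full fit) between genotypes in vehicle-treated MDPs, 1 to 4 (4) in GSI-treated MDPs, 0 to 1 (0) in vehicle- or GSI-treated CDPs and 6 to 7 (6) on average. By stage it was 0 to 5 (4) in WT and 0 to 5 (2) in IkL/L cells with vehicle, 4 to 7 (5) in WT and 0 to 5 (3) in IkL/L cells with GSI. It was 0 to 1 (0) for the mean GSI contrast, 0 to 2 (0) for genotype by stage with vehicle and 2 to 4 (4) averaged over treatment. In the compared arrays alone the count was 0 between genotypes in MDPs with vehicle or GSI and 0 between stages in GSI-treated WT cells, but 1 and 6 between stages in IkL/L cells with vehicle and GSI. An intensity trend or leaving out dim genes (11232 left) gave 1 in vehicle-treated CDPs between genotypes, and without dim genes or with quantile normalisation the IkL/L stage count with vehicle was 4.

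The labels do not say what the replicate numbers share, and same-numbered arrays deviated together in only some groups: of 28 pairs of groups 17 had a correlation over 0.1 and 5 under -0.1, all 5 with IkL/L MDP GSI. The highest were 0.658 and 0.585, for vehicle against GSI in IkL/L and in WT CDPs, and 0.566, for WT against IkL/L CDPs with GSI. Vehicle against GSI gave 0.476 in WT MDPs and -0.0204 in IkL/L MDPs. The numbers were therefore not taken as pairing all groups. With the number as a replicate block 2 genes passed between genotypes in vehicle-treated CDPs (H2-Eb1, adjusted p = 0.0220, and Ciita, 0.0343), and Ciita joined the WT stage contrast with vehicle (0.0398). By stage in IkL/L cells 5 passed with vehicle (H2-Aa, H2-Ab1 and Cd74 joined) and 5 with GSI (H2-Aa and Cd74 joined), and 1 passed for genotype by stage with vehicle. No other count of the measured pathway genes moved by over 1.5 times. Calls over all genes, in either direction, rose with the block too. They went from 235 to 365 between genotypes in vehicle-treated CDPs and from 19 to 35 by stage in vehicle-treated WT cells. By stage in IkL/L cells they went from 340 to 570 with vehicle and from 482 to 718 with GSI. For genotype by stage with vehicle they went from 21 to 28.

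None of the differences that passed changed sign. Small ones did without 1 array each: H2-Ob between genotypes in vehicle-treated MDPs (-0.39 to 0.14), H2-Oa (-0.36 to 1.14) and H2-Ob (-0.49 to 0.59) in GSI-treated CDPs, H2-Oa with GSI in WT CDPs (-1.19 to 0.30), the mean GSI difference of H2-Aa (-0.35 to 0.0776), H2-Ab1 (-0.28 to 0.0541), H2-Eb1 (-0.21 to 0.0834) and H2-DMa (-0.19 to 0.0137), and genotype by stage for H2-DMa (-0.21 to 0.19; 0.0133 with quantile normalisation), H2-Oa (-0.19 to 0.56), H2-Ob (-0.0864 to 0.46) and Ciita (-0.0365 to 0.52). Where dropping an array not in the comparison changed a count, the spread shared by all groups is the link, by construction.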
